A study of Mus musculus with 8 samples.

Results

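The elastic fibre genes described here are elastin (Eln), the fibrillins Fbn1 and Fbn2, the fibulins Fbln1, Fbln2, Fbln5, Fbln7 and Efemp2 (fibulin-4), the elastin microfibril interfacer Emilin1 and the microfibril-associated protein gene Mfap5. They were chosen by gene symbol, which gave 10 of the 55276 symbols kept from the deposited tables. RNA had been sequenced from fibro-adipogenic progenitors (FAPs), the mesenchymal progenitors of skeletal muscle, in 8 libraries with 2 per genotype at 3 and at 7 days post injury (dpi). Cells were sorted as GFP+ and negative for endothelial, leukocyte and erythroid surface markers from tibialis anterior muscle after freeze injury. Control mice carried Osr1 flox/+ with CAGG Cre+, and Osr1cKO mice carried Osr1 flox/flox with CAGG Cre+, on a C57Bl6 background and at 4 to 6 months of age. Mice of both genotypes received tamoxifen, and recombination puts GFP in the place of Osr1, so control cells had also lost 1 of their Osr1 alleles. The CAGG promoter drives Cre in nearly all cell types, so recombination was not restricted to FAPs. The methods give 1 mouse for each library of 3 dpi and 4 mice, pooled, for each of 7 dpi.

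Elastic fibres consist of a core of cross-linked elastin on a scaffold of fibrillin microfibrils, and they let a tissue stretch and recoil. Fibulins help tropoelastin, the soluble form of elastin, to reach the microfibrils, and lysyl oxidases cross-link it there. Microfibrils without elastin also occur, and they hold growth factors of the transforming growth factor beta family in the matrix. In muscle, fibroblast-like cells are a main source of these proteins.

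Values are TPM, which scale each transcript for its length and for the size of the library, so levels of different genes can be compared. Depth was recovered from the low TPM values and ranged from 36516526 to 51096428 fragments per library, and no member had fewer than 538 fragments in any library. Osr1, the deleted gene, stood at 105 and 91.0 TPM in control against 70.7 and 71.9 TPM in Osr1cKO libraries at 3 dpi, and at 67.6 and 71.6 TPM against 64.4 and 60.8 TPM at 7 dpi. Its log2 fold change was -0.45 (standard error 0.13) at 3 dpi and -0.28 (standard error 0.08) at 7 dpi, with limma adjusted p of 0.772 and 0.320. It passed the study's threshold at 3 dpi and not at 7 dpi. Transcript from the deleted allele can still be counted outside the floxed exon, so this level is a weak check of the labels, and reads per exon were not analysed here. All 5 FAP markers were present in every library. Their summed level was 6689 to 7770 TPM in control and 4292 to 5069 TPM in Osr1cKO at 3 dpi, against 6380 to 7230 and 5840 to 7536 TPM at 7 dpi. Ly6a was the largest part of it at 3 dpi, with means of 4819 TPM in control and 2539 TPM in Osr1cKO. Summed levels of macrophage markers were at most 21.9 TPM, of muscle stem cell markers at most 9.02 TPM and of Schwann cell markers at most 2.97 TPM, with Pax7, Myf5 or Myod1 at 0 in some libraries of 3 dpi.

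In control FAPs at 3 dpi, Fbln2 and Fbn1 were the most abundant members, with means of 1923 ± 373 and 1608 ± 4.69 TPM (SD, n = 2). Mfap5, Efemp2 and Emilin1 followed at 368 ± 39.9, 350.5 ± 54.4 and 271 ± 86.4 TPM, and neighbours in this order overlapped. Fbln1 (97.9 ± 11.3 TPM) and Eln (97.1 ± 11.3 TPM) overlapped as well. Fbln5 was lower at 45.7 ± 13.9 TPM, and Fbln7 and Fbn2 were the least abundant at 13.7 ± 0.885 and 12.7 ± 3.36 TPM. By 7 dpi, Eln had moved from rank 7 to rank 4 in control, at 248 ± 1.62 TPM. In Osr1cKO it went from rank 7 to rank 8, at 107 ± 19.6 TPM, where its libraries overlapped those of Fbln7 at rank 7. Fbn1 was first and Fbln2 second in every group except control at 3 dpi, and in each group the libraries of this pair did not overlap.

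**Figure D1:**
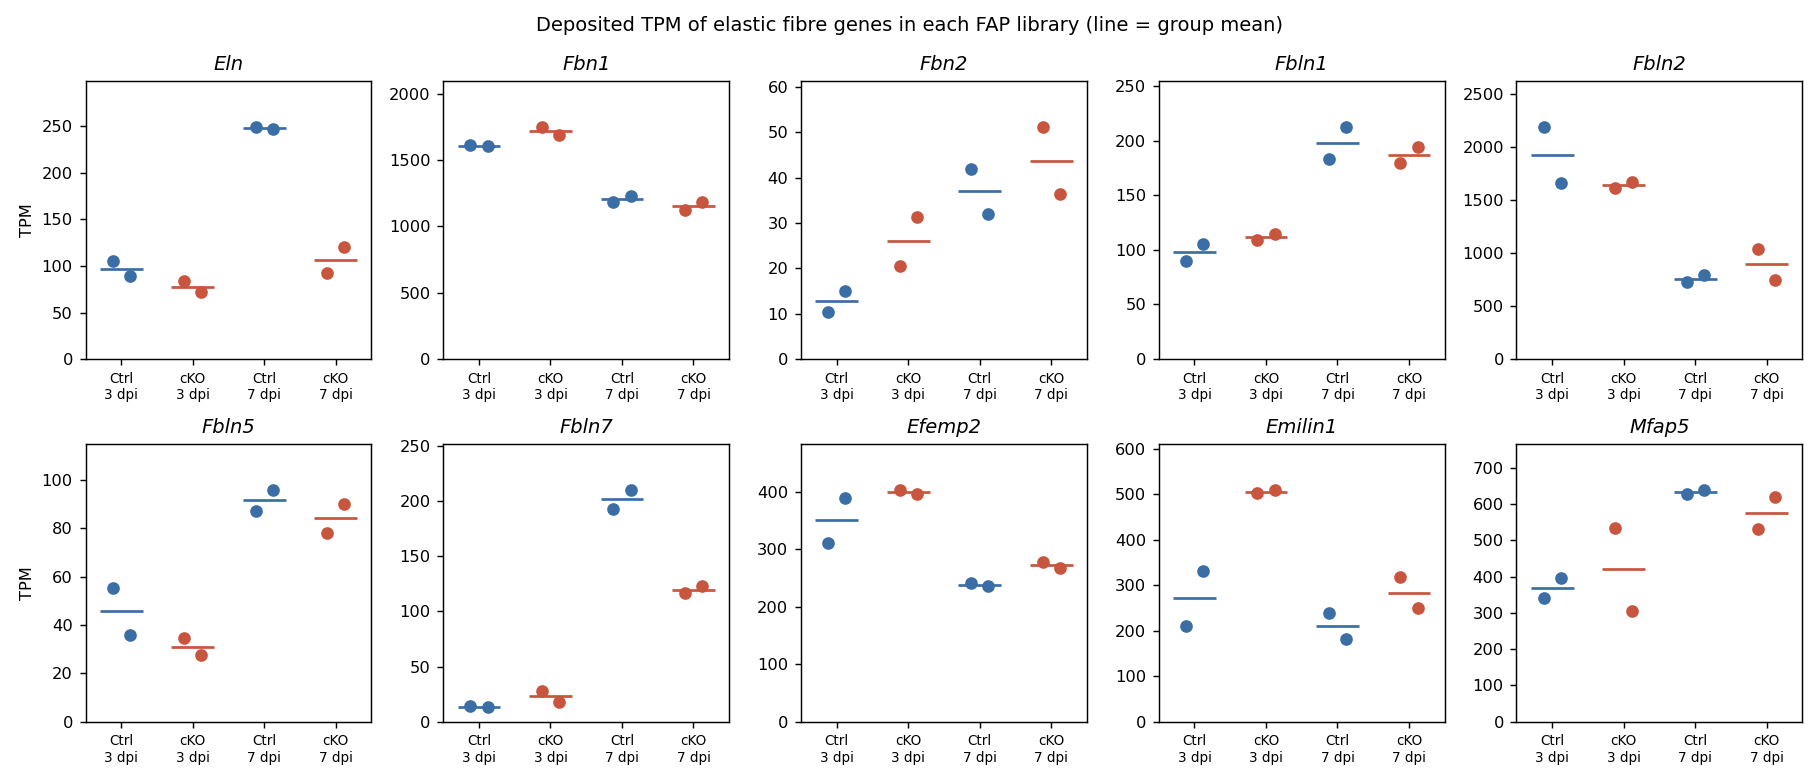
Deposited TPM of the 10 elastic fibre genes in each of the 8 libraries (points) with group means (lines), for control (Ctrl) and Osr1cKO (cKO) FAPs at 3 and 7 dpi, each panel on its own axis from 0. Eln stood at 249 and 247 TPM in control at 7 dpi and at no more than 121 TPM in the other 6 libraries, and Fbln7 rose steeply from 3 to 7 dpi in both genotypes.

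At 3 dpi, the comparison between genotypes asked what loss of the remaining Osr1 allele changes early after injury. The study's threshold for this day is a fold above 1.2 and p below 0.05 before adjustment. Emilin1, Fbn2 and Fbln7 passed it, and all 3 were higher in Osr1cKO FAPs. No member was called lower. Of 15699 genes tested, 6.27% passed as well. None passed a Benjamini-Hochberg adjusted p under 0.1, and the smallest adjusted p of any gene was 0.328. Genotypes did not overlap for 8 of 10 members, against 36.2% of all tested genes. The median log2 fold change was 0.17 over the members and 0.01 over all genes.

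Emilin1 encodes a glycoprotein found where elastin meets the microfibrils, and lies at 30913402 to 30921277 on chromosome 5 of mm10. It stood at 209.9 and 332 TPM in control against 502 and 509 TPM in Osr1cKO at 3 dpi. Both Osr1cKO libraries were above both controls, and the controls differed more from each other than the Osr1cKO libraries did. The log2 fold change was 0.93 (adjusted p = 0.772 by limma, standard error 0.25). With 1 library left out it ranged from 0.59 without control replicate 1 to 1.27 without control replicate 2, and it passed the unadjusted threshold each time. In such fits, here and below, the lone library of a group is assumed to vary like the other groups compared, which alone supply the spread.

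Fbn2 encodes fibrillin-2, the fibrillin most typical of developing tissue. It stood at 10.3 and 15.1 TPM in control against 20.6 and 31.3 TPM in Osr1cKO at 3 dpi, with no overlap. The log2 fold change was 0.97 (adjusted p = 0.772 by limma, standard error 0.28), and it was no longer called without control replicate 1 or without Osr1cKO replicate 2, at 0.70 in each case. Fbn1, which encodes fibrillin-1, the main structural protein of microfibrils, was about 2 orders of magnitude more abundant at 1611 and 1604 TPM in control against 1747 and 1688 TPM in Osr1cKO. Its log2 fold change of 0.09 had a 95% interval from -0.40 to 0.58. Fbn2 thus stood at 0.641 and 0.940 TPM per 100 TPM of Fbn1 in control and at 1.18 and 1.85 in Osr1cKO. Mfap5, a microfibril-bound protein gene, had 340.1 and 396 TPM in control against 534 and 307 TPM in Osr1cKO, so the Osr1cKO libraries lay on either side of the controls.

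Fbln7, a fibulin with a role in cell adhesion, had 14.4 and 13.1 TPM in control against 28.2 and 18.2 TPM in Osr1cKO at 3 dpi. The libraries did not overlap, and the Osr1cKO libraries were further apart than the controls. The log2 fold change was 0.69 (adjusted p = 0.784 by limma, standard error 0.25). The call was lost without control replicate 1 (0.73), control replicate 2 (0.63) or Osr1cKO replicate 1 (0.36), and with no filter on low values (0.69). Eln and Fbln5, a fibulin that binds tropoelastin and cell surface integrins, were the pair of members with both Osr1cKO libraries below both controls, and neither passed. Eln had 105 and 89.2 TPM in control against 83.5 and 71.6 TPM in Osr1cKO, and its log2 fold change was -0.32 with a 95% interval from -0.72 to 0.08. Fbln5 had 55.5 and 35.9 TPM in control against 34.6 and 27.6 TPM in Osr1cKO. Its log2 fold change of -0.52 became -0.83 without control replicate 2 and -0.22 without control replicate 1. It was called with all 8 libraries in 1 fit, at -0.49, where 870 genes were called higher and 932 lower of 17371. Efemp2, which brings lysyl oxidase to tropoelastin, had 312 and 389 TPM in control against 403 and 397 TPM in Osr1cKO. Fbln1 had 89.9 and 106 TPM in control against 109 and 115 TPM in Osr1cKO, and Fbln2 had 2186 and 1659 TPM in control against 1613 and 1673 TPM in Osr1cKO. Both encode fibulins that bind basement membrane and microfibril proteins, and neither passed.

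Of 4 tenocyte markers, 1 was called between genotypes at 3 dpi, against 6.27% of all genes. All 4 were present, with a summed level of 522 to 776 TPM in control and 1563 to 1764 TPM in Osr1cKO. Thbs4 made up most of that sum and was the marker called, with a log2 fold change of 1.39 (adjusted p = 0.772 by limma). Scx, Mkx and Tnmd had 1.10, 0.74 and 0.44 and did not pass. Of 5 FAP markers, 0 were called higher and 1 lower at this day, against 6.27% of all genes. The marker called was Ly6a, with a log2 fold change of -0.95 (adjusted p = 0.781 by limma). Dpt and Cd34 had 0.22 and 0.08, and Pdgfra and Dcn had -0.27 and -0.41. In sorted bulk RNA, fewer cells of a type and less RNA per cell cannot be told apart, and the part of these markers in the values of Emilin1, Fbn2 and Fbln7 was not tested. Endothelial markers summed to 44.3 TPM in control replicate 1 and to less in replicate 2, against 17.2 and 18.0 TPM in Osr1cKO. Both controls lay above both Osr1cKO libraries, but Kdr had 16.8 TPM in control replicate 1 and 2.25 TPM in replicate 2. Of the 4 endothelial markers, 0 were called at this day. Smooth muscle and pericyte markers summed to 29.0 to 36.8 TPM in control and 26.9 to 51.3 TPM in Osr1cKO. Markers of a fibroblast subset with Pi16 and Dpp4 had 0 of 4 called by limma between genotypes at this day, and 0 at 7 dpi at either threshold.

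At 7 dpi, Eln and Fbln7 were lower in Osr1cKO FAPs at the study's threshold for this day, a fold above 1.2 with an adjusted p below 0.1, and no member was called higher. This threshold was passed by 11 of 16578 genes, or 0.0664%. Before adjustment, at p below 0.05, Mfap5 joined them, which made 3 members lower and 0 higher, against 11.1% of all genes in either direction. Genotypes did not overlap for 5 of 10 members, and the same was true of 53.5% of all genes. The median log2 fold change was -0.20 over the members and 0.00 over all genes.

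Eln (chromosome 5 of mm10, 134702593 to 134747323, minus strand, 36 merged exons) stood at 249 and 247 TPM in control against 92.9 and 121 TPM in Osr1cKO at 7 dpi. The controls lay close together, and both were more than 100 TPM above either Osr1cKO library. The log2 fold change was -1.35 (95% interval -1.64 to -1.06, adjusted p = 0.0941 by limma, standard error 0.12), which ranked 7 by p among all genes. With 1 library left out it lay between -1.51 and -1.19 and was called each time, with the spread of the other genotype's pair. The call was close to its threshold: the adjusted p was 0.101 on deposited TPM without further scaling and also with upper quartile scaling, 0.116 with a filter on mean TPM, 0.152 with all 8 libraries in 1 fit and 0.382 with no filter, against 0.00757 with limma-voom on recovered fragments. An antisense gene, Gm30003, shares 267 exon bases with Eln, at a mean of 0.174 TPM.

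Fbln7 (chromosome 2 of mm10, 128862981 to 128897034, plus strand) stood at 193 and 209.8 TPM in control against 117 and 123 TPM in Osr1cKO at 7 dpi. Replicates of each genotype were close, and the genotypes were well apart. The log2 fold change was -0.88 (95% interval -1.06 to -0.69, adjusted p = 0.0941 by limma, standard error 0.07). Without Osr1cKO replicate 1 the adjusted p was 0.149, and without Osr1cKO replicate 2 it was 0.154, at log2 fold changes of -0.87 and -0.88. Over the other alternatives it ran from 0.0125 with limma-voom to 0.464 with all 8 libraries in 1 fit. The direction was thus opposite to that at 3 dpi.

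Mfap5 had 628 and 639 TPM in control against 533 and 621 TPM in Osr1cKO at 7 dpi. Osr1cKO replicate 2 lay just under the controls, and the log2 fold change was -0.27 (adjusted p = 0.356 by limma, standard error 0.09). It no longer passed the unadjusted threshold on unscaled TPM (-0.14), with all 8 libraries in 1 fit (-0.25), or without control replicate 1 (-0.28), control replicate 2 (-0.27) or Osr1cKO replicate 1 (-0.19). Fbn1 had 1182 and 1228 TPM against 1127 and 1183 TPM, with a 95% interval of its log2 fold change from -0.44 to 0.06, and it shares 2442 exon bases with Gm9913 on the opposite strand, at a mean of 4.39 TPM. Fbn2 had 41.9 and 32.0 TPM in control against 51.0 and 36.4 TPM in Osr1cKO, and its libraries overlapped. Emilin1 had 239 and 182 TPM in control against 318 and 249 TPM in Osr1cKO. It was again above control in both libraries, but with a log2 fold change of 0.30 (adjusted p = 0.560 by limma, standard error 0.19) it did not pass.

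Among the other fibulins at 7 dpi, Fbln5 had 87.3 and 95.9 TPM in control against 78.2 and 90.2 TPM in Osr1cKO, with a log2 fold change of -0.25 (adjusted p = 0.354 by limma) whose fold stayed under 1.2. Fbln1 had 183 and 212 TPM in control against 180.1 and 194 TPM in Osr1cKO, and Fbln2 had 727 and 792 TPM in control against 1042 and 744 TPM in Osr1cKO. Both sets overlapped. Efemp2 had 241 and 236 TPM in control against 278 and 268 TPM in Osr1cKO, with a 95% interval of its log2 fold change from -0.13 to 0.26. It shares 173 exon bases with Mus81 on the opposite strand, at a mean of 5.54 TPM. Summed tenocyte markers were again higher in Osr1cKO, at 2874 to 3256 TPM against 2235 to 2450 TPM. Thbs4 made up most of that sum and did not pass (log2 fold change 0.16, adjusted p = 0.660 by limma). The other 3 of 4, Tnmd, Scx and Mkx, passed the unadjusted threshold, against 11.1% of all genes. Their adjusted p by limma was 0.271, 0.324 and 0.367. Smooth muscle and pericyte markers summed to 48.7 to 119 TPM in control and 79.1 to 107 TPM in Osr1cKO, and FAP markers overlapped between genotypes. The part of these markers in the values of Eln and Fbln7 was not tested.

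**Figure D2:**
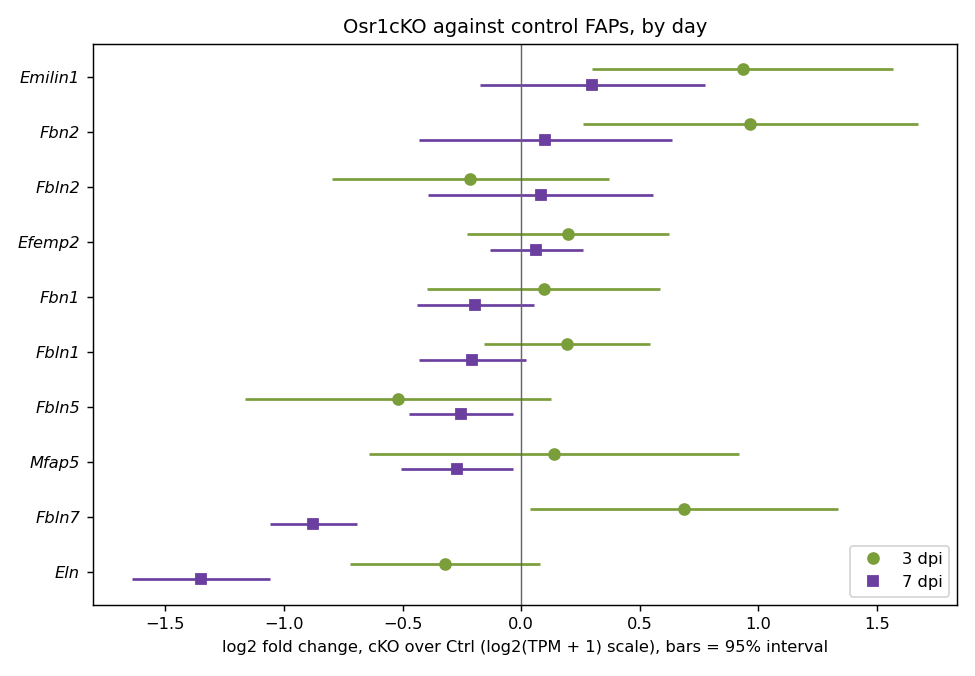
Log2 fold change of Osr1cKO over control on the log2(TPM + 1) scale for each member, at 3 dpi (circles) and 7 dpi (squares), with 95% limma intervals as bars. Eln (-1.35) and Fbln7 (-0.88) lie left of 0 at 7 dpi, and Emilin1 (0.93), Fbn2 (0.97) and Fbln7 (0.69) lie right of 0 at 3 dpi.

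From 3 to 7 dpi, the question was how these transcripts moved as the muscle went from early repair to regeneration, within each genotype. Day, number of pooled mice and depth changed together, so these cannot be told apart. The labels give the same sequencing instrument for all 8 libraries while the methods name a pair, and which libraries ran on which was not settled. In control, 8 of 10 members passed a fold change over 1.2 and an adjusted p under 0.1, 6 higher and 2 lower at 7 dpi, against 49.3% of all genes. In Osr1cKO, 9 passed, 5 higher and 4 lower, against 56.5% of all genes. Shares of all genes this large make a call of a single member common in either comparison. The median log2 fold change of the members was 0.99 in control and 0.42 in Osr1cKO, against 0.01 over all genes in both.

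Markers of other cell types also moved between the days, where 49.3% of all genes were called in control and 56.5% in Osr1cKO. All 4 markers of the Pi16 and Dpp4 subset were higher at 7 dpi in both genotypes, and their sum went from 153 to 171 TPM to 419 to 581 TPM in control and from 163 to 216 TPM to 388 to 713 TPM in Osr1cKO. All 4 tenocyte markers rose in both genotypes as well, with Tnmd up by 4.66 and 5.74 on the log2 scale. Of 6 smooth muscle and pericyte markers, 4 rose and 0 fell in control and 5 rose and 1 fell in Osr1cKO, with Rgs5 up by 3.99 and 4.58. Endothelial markers rose for 3 of 4 in each genotype, to sums of 46.0 to 61.0 TPM in control and 46.6 to 70.5 TPM in Osr1cKO, and macrophage markers for 1 of 5 and 4 of 5. Of 5 FAP markers, 3 rose and 2 fell in each genotype. The part of these markers in the members' values between the days was not tested.

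The fibulins parted ways between the days. Fbln7 rose most, with a log2 fold change of 3.87 (standard error 0.11) in control and 2.30 (standard error 0.21) in Osr1cKO, and ranked 2 by p among all genes in control. Fbln5 rose by 1.11 and 1.36 and Fbln1 by 1.10 and 0.68 on the log2 scale. Fbln2 and Efemp2 fell in both genotypes, Fbln2 by 1.23 in control and by 0.95 in Osr1cKO, and Efemp2 by 0.45 and 0.61. The Efemp2 call in control (adjusted p = 0.0922 by limma) was lost under several alternatives, among them upper quartile scaling at -0.25 and leaving out either control library of 7 dpi, at -0.44 and -0.38. The Fbln2 call in control was also lost without either of these libraries, at -1.14 and -1.24.

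Eln rose by 1.44 (adjusted p = 0.00387 by limma, standard error 0.12) in control and by 0.39 (adjusted p = 0.0749, standard error 0.15) in Osr1cKO. The rise in Osr1cKO was not called without Osr1cKO replicate 2 of either day, at 0.25 and 0.29. Fbn2 rose by 1.57 in control and by 0.69 in Osr1cKO, where the call was lost without Osr1cKO replicate 1 of 3 dpi (0.40) or of 7 dpi (0.47). Mfap5 rose by 0.88 in control and had a log2 fold change of 0.45 (95% interval -0.25 to 1.15) in Osr1cKO, which became 0.85 and was called without Osr1cKO replicate 1 of 3 dpi. Fbn1 fell by 0.63 in Osr1cKO, a call lost without either Osr1cKO library of 7 dpi at -0.58 in each case, and had -0.32 (95% interval -0.79 to 0.14) in control, called at -0.38 without control replicate 1 of 3 dpi. Emilin1 fell by 0.90 in Osr1cKO and had -0.25 in control with overlapping libraries, which was -0.64 and called without control replicate 1 of 3 dpi.

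**Figure D3:**
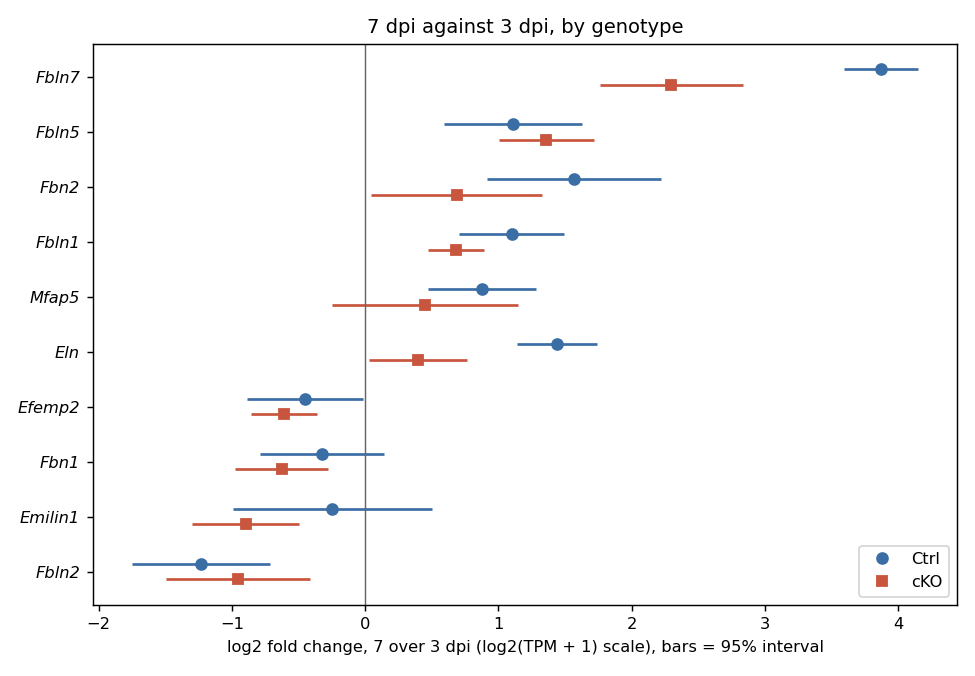
Log2 fold change of 7 over 3 dpi on the log2(TPM + 1) scale for each member in control (circles) and Osr1cKO (squares), with 95% limma intervals as bars. The intervals of Fbln7, Fbln5, Fbn2, Fbln1 and Eln lie right of 0 in both genotypes, and those of Fbln2 and Efemp2 left of 0 in both. The interval of Mfap5 includes 0 in Osr1cKO, and those of Fbn1 and Emilin1 include it in control. The values of Eln are 1.44 in control and 0.39 in Osr1cKO.

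Whether the effect of genotype differed between the days was tested as an interaction over all 8 libraries. No gene of 17371 passed an adjusted p under 0.1 by limma (0%), nor any of 17144 by limma-voom. Genes called were 1 higher and 2 lower with a pseudocount of 0.1, 0 and 1 with a filter on mean TPM, and 15 and 25 with no filter. No member was among them. By limma, 6.78% of the 17371 genes had an unadjusted p under 0.05. Of the members, Fbln7 and Eln were under that unadjusted p, both with a more negative genotype effect at 7 dpi. The interaction of Fbln7 was -1.57 (adjusted p = 0.421 by limma, standard error 0.27) and that of Eln was -1.04 (adjusted p = 0.439 by limma, standard error 0.20). They ranked 21 and 39 by p among all genes. With 1 library left out, the interaction of Fbln7 lay between -1.89 and -1.26 and that of Eln between -1.19 and -0.88. The intervals of the other members included 0.

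Fbln1 and Fbln7 had the most similar patterns of any pair of members, with a Pearson correlation of 0.97 over the 8 libraries, a description over libraries that share day and genotype. RefSeq gives promoters for 7 of the 10 members. Those of Fbln7, Fbln1, Fbln5 and Efemp2 have an entry whose 250 bases before the start hold no annotated exon. For Fbln7 this window lies inside the annotated gene, which begins at 128862981, and so in an intron. For Fbln1, Fbln5 and Efemp2 it lies before the annotated gene. No other member had such an entry, so these 4 are shown. Of their genes, the first 3 rose between the days and Efemp2 fell. Sequences are 5′ to 3′ on the gene's strand of GRCm38.p6, at chr2:128863682-128863931 (plus) for Fbln7, chr15:85205699-85205948 (plus) for Fbln1, chr12:101819120-101819369 (minus) for Fbln5 and chr19:5473696-5473945 (plus) for Efemp2, and capitals mark GC boxes.
Fbln7: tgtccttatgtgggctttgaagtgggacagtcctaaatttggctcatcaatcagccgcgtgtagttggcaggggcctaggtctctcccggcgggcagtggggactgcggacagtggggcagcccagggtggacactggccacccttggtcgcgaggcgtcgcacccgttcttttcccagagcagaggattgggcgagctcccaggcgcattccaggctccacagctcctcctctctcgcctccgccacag
Fbln1: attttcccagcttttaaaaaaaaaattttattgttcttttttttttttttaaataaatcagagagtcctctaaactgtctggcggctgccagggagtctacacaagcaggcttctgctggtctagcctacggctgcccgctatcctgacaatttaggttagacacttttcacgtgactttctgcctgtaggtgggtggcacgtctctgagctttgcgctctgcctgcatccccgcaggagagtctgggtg
Fbln5: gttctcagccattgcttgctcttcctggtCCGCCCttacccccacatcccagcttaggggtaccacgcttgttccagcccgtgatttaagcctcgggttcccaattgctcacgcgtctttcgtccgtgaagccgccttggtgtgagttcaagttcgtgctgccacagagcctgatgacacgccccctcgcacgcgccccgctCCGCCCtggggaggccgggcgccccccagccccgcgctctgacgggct
Efemp2: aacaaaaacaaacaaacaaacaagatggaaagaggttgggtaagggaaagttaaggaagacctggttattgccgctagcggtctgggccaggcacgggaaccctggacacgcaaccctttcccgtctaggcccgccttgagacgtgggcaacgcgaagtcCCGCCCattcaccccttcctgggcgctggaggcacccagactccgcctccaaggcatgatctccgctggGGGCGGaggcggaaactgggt

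The windows shown for Fbln7 and Fbln1 held no GC box (GGGCGG or CCGCCC), and those for Fbln5 and Efemp2 held 2 each. Further entries of these genes, which overlap annotated exons and are not shown, differed: the other Fbln1 entry held 1 GC box, the other Fbln5 entry 0, and the other Efemp2 entries 5 each. The count thus depends on the start site taken. A GC box was present in 32.7% of 32851 mouse promoter windows of this length. None of the 4 windows shown held a TATA box (TATAAA on either strand, 12.4% of windows), an AP-1 site (TGANTCA, 6.75%) or the letters ACNGTAGC or GCTACNGT that Osr proteins bind in vitro (1.8%). GC content was 63.2% for Fbln7, 46.4% for Fbln1, 65.2% for Fbln5 and 59.2% for Efemp2, against a median of 52.4% over all windows.

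The balance among the 10 transcripts shifted more than their sum. Together they made up 0.464% to 0.508% of all TPM in the 4 libraries of 3 dpi and 0.363% to 0.387% in those of 7 dpi, and the genotypes overlapped at each day. Fbn1 and Fbln2 took 77.0% and 70.3% of this sum in control and 66.2% and 69.5% in Osr1cKO at 3 dpi, and between 50.6% and 56.8% in all libraries of 7 dpi. The share of Eln was 6.60% and 6.37% in control and 2.43% and 3.32% in Osr1cKO at 7 dpi. In both control libraries Eln thus took a share larger than in any other library.

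Set against its scaffold, Eln stood at 21.1 and 20.1 TPM per 100 TPM of Fbn1 in control at 7 dpi and at 8.24 and 10.2 in Osr1cKO. At 3 dpi, the same ratio was 6.52 and 5.56 in control and 4.78 and 4.24 in Osr1cKO. Per 100 TPM of Fbln5, Eln stood at 285 and 257 TPM in control against 119 and 134 TPM in Osr1cKO at 7 dpi, and between 189 and 259.7 TPM in the libraries of 3 dpi. Fbln7 stood at 106 and 98.8 TPM per 100 TPM of Fbln1 in control and at 64.7 and 63.2 in Osr1cKO at 7 dpi, and at no more than 26.0 in any library of 3 dpi. These ratios were described and not tested.

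**Figure D4:**
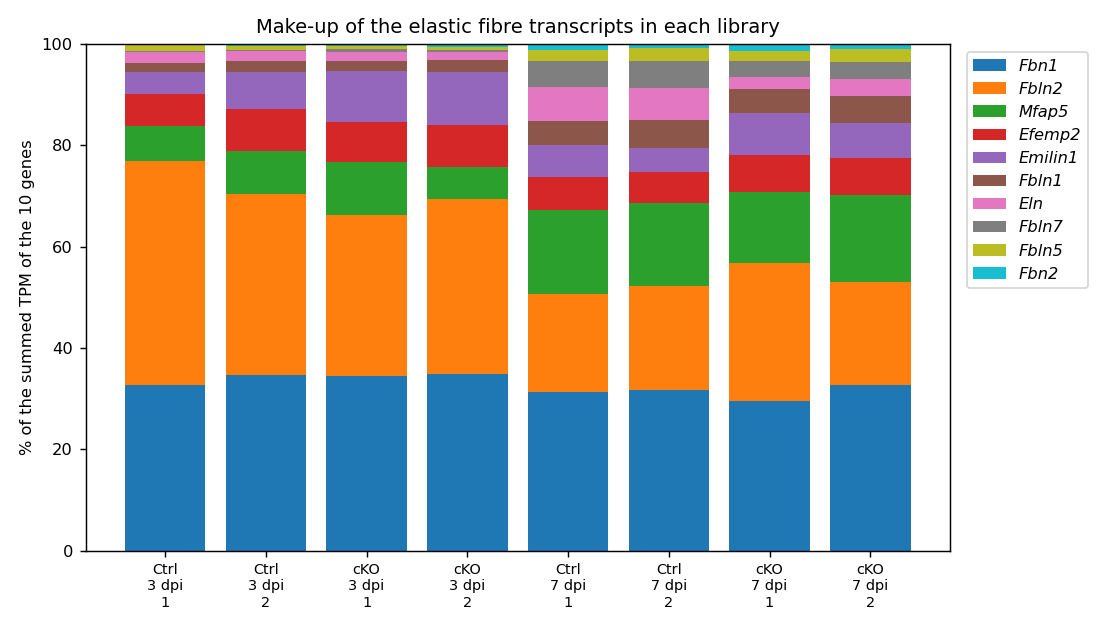
Share of the summed TPM of the 10 elastic fibre genes taken by each gene in each library (stacked bars, % of the sum). Fbn1 and Fbln2 take 66.2% to 77.0% at 3 dpi and 50.6% to 56.8% at 7 dpi, and the Eln share is 6.60% and 6.37% in control and 2.43% and 3.32% in Osr1cKO at 7 dpi.

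Other genes of elastic fibre assembly were described as lists by their counts, with the most abundant genes of each named. Of 8 tested relatives of the microfibril and fibulin genes, 0 were called at 7 dpi at the adjusted threshold by limma and 3 were lower and 1 higher at the unadjusted threshold, which 11.1% of all genes passed, with a median log2 fold change of -0.26. Mfap4, a microfibril-associated protein gene, had 922 and 884 TPM in control against 682 and 679 TPM in Osr1cKO (log2 fold change -0.54, adjusted p = 0.222 by limma). Mfap2, another microfibril protein gene, had 513 and 613 TPM in control against 404 and 411 TPM in Osr1cKO (log2 fold change -0.59, adjusted p = 0.228 by limma). For both, the genotypes did not overlap, which was also true of 53.5% of all genes. At 3 dpi 1 of 7 tested relatives was called, against 6.27% of all genes. It was Efemp1, a fibulin, at 400.0 and 334 TPM in control against 223 and 281 TPM in Osr1cKO (adjusted p = 0.772 by limma). Between the days 5 rose and 1 fell in control and 6 rose and 1 fell in Osr1cKO, where 49.3% and 56.5% of all genes were called, with Mfap4 up by 3.52 and 2.14 and Mfap2 up by 2.91 and 2.22 on the log2 scale.

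Lysyl oxidases, the enzymes that cross-link elastin and collagen, fell between the days for 4 of 5 members in each genotype, with a median log2 fold change of -1.41 in both, against 49.3% of all genes called in control and 56.5% in Osr1cKO. The exception was Loxl2, which had 0.51 in control and -0.08 in Osr1cKO and did not pass. Lox had 2406 and 1846 TPM in control against 2317 and 2959 TPM in Osr1cKO at 3 dpi, and 807 and 685 TPM in control against 1178 and 894 TPM in Osr1cKO at 7 dpi. Loxl1, the family member most closely tied to elastin, had 1719 and 1628 TPM in control against 1666 and 1549 TPM in Osr1cKO at 3 dpi, and 897 and 886 TPM against 859 and 811 TPM at 7 dpi. Loxl2 had 481 and 440 TPM in control against 641 and 668 TPM in Osr1cKO at 7 dpi (log2 fold change 0.38, adjusted p = 0.280 by limma). It was the 1 lysyl oxidase past the unadjusted threshold between genotypes, which 11.1% of all genes passed at 7 dpi.

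Latent transforming growth factor beta binding proteins tether that growth factor to microfibrils, and some also take part in elastic fibre assembly. None of the 4 was called between genotypes at 7 dpi by limma at either threshold. At 3 dpi 1 was called, against 6.27% of all genes. Ltbp3 was higher in Osr1cKO, at 97.4 and 92.8 TPM against 70.7 and 72.7 TPM in control (log2 fold change 0.40, adjusted p = 0.772 by limma). Between the days, Ltbp4, which promotes elastic fibre assembly, rose by 1.62 in control and 1.38 in Osr1cKO on the log2 scale, and Ltbp2 fell by 1.58 and 1.86.

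Of 8 genes for microfibril-associated ADAMTS and ADAMTS-like proteins, 1 was called lower in Osr1cKO at 7 dpi, against 0.0664% of all genes. This was Adamts17, named after its values were seen, with 13.0 and 14.3 TPM in control against 5.24 and 5.12 TPM in Osr1cKO (log2 fold change -1.37, standard error 0.13, adjusted p = 0.0941 by limma). At 3 dpi it was at most 0.254 TPM in any library. Adamtsl4, a microfibril-binding protein gene, had 69.9 and 51.9 TPM in control against 33.9 and 36.7 TPM in Osr1cKO at 3 dpi (adjusted p = 0.772 by limma) and overlapped at 7 dpi. In all, 1 was called higher and 2 lower at 3 dpi, against 6.27% of all genes. Between the days, 5 rose in control and 6 in Osr1cKO, and 0 fell, against the 49.3% and 56.5% of all genes called.

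Of 6 tested genes for elastin-degrading enzymes, 5 rose and 0 fell between the days in each genotype, against 49.3% of all genes called in control and 56.5% in Osr1cKO. Mmp2, a gelatinase that also cuts elastin, rose by 1.48 and 1.19 on the log2 scale in control and Osr1cKO, and Ctsk, a cathepsin with elastase activity, by 1.62 and 1.35. Mmp2 had 2910 and 3302 TPM in control against 2979 and 3335 TPM in Osr1cKO at 7 dpi, which overlapped. Between genotypes 0 were called at 3 dpi by limma, and at 7 dpi 0 passed the adjusted threshold. At the unadjusted threshold of 7 dpi 1 was higher and 1 lower, against 11.1% of all genes. Mmp7 was listed at 0 in all 8 libraries.

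No integrin subunit of the 9 that bind these proteins was called between genotypes by limma at either threshold and at either day. Itga5, a receptor chain for fibronectin that also binds fibrillin, had 1442 and 1229 TPM in control against 1406 and 1232 TPM in Osr1cKO at 3 dpi, and fell by 1.10 in control and 0.99 in Osr1cKO on the log2 scale to 7 dpi. Itgb1, its partner chain, had between 656 and 884 TPM in all 8 libraries.

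**Figure D5:**
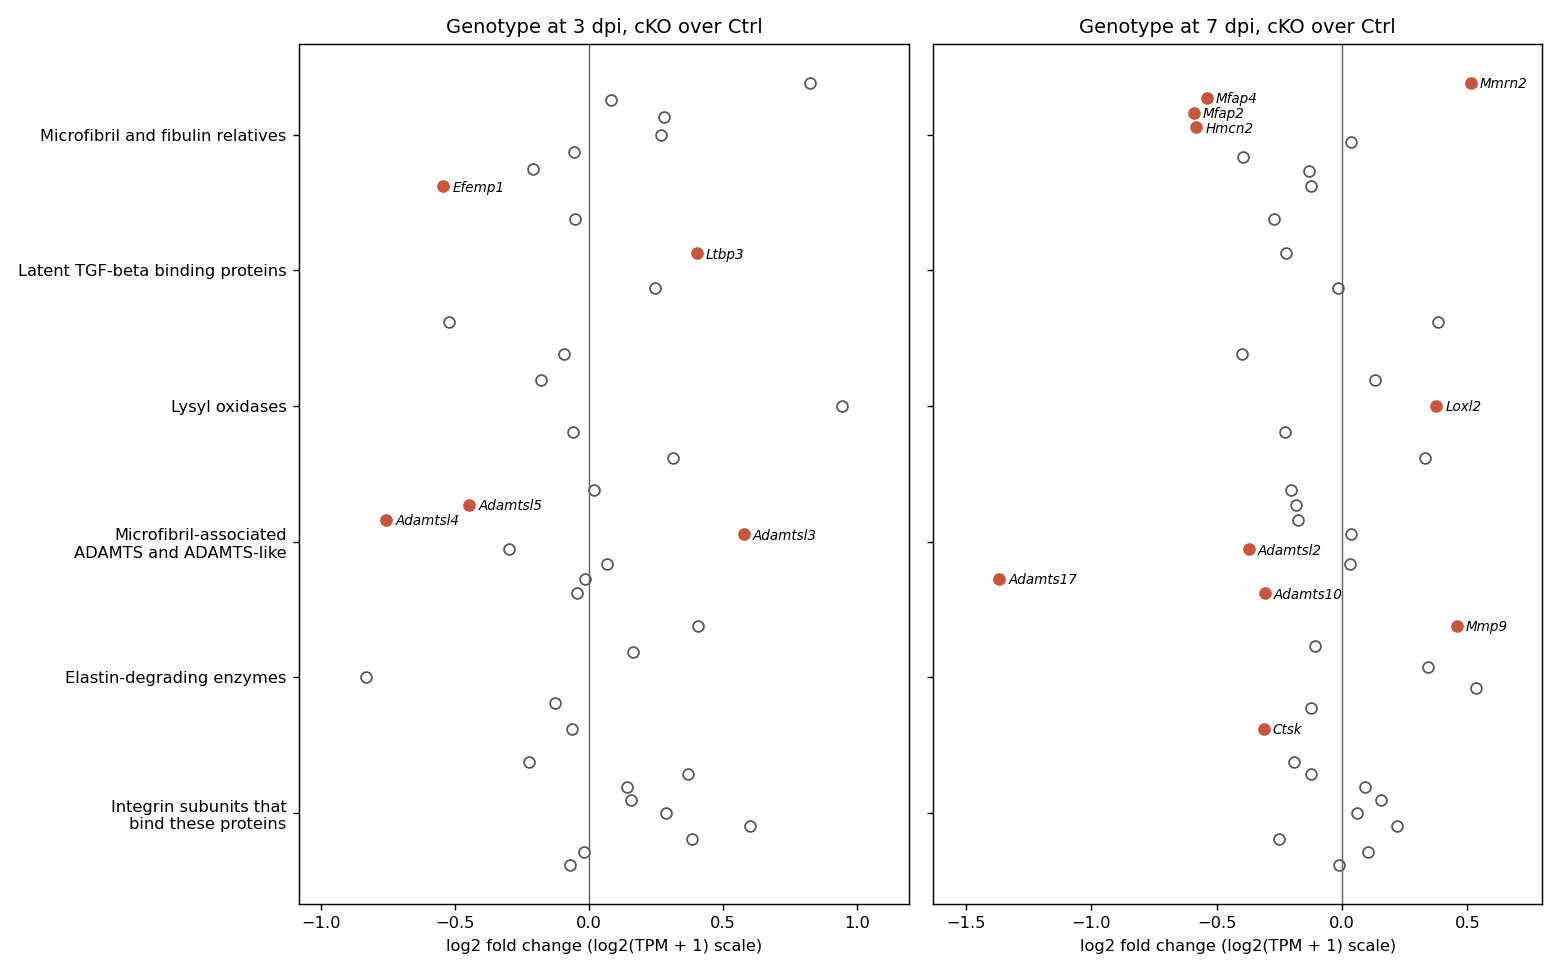
Log2 fold change of Osr1cKO over control on the log2(TPM + 1) scale for every tested gene of the 6 lists, at 3 dpi (left) and 7 dpi (right). Filled points with names are the genes past the fold and p thresholds before adjustment, and open points are the others. Adamts17 at -1.37 is the 1 gene that also passed an adjusted p under 0.1.

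Genes outside these lists were ranked by how closely they followed 3 of the members over the 8 libraries, among 9796 named genes with a mean of at least 5 TPM. For Eln they were Tnrc6b (r = 0.98), Pde12 (0.96) and Tnfsf12 (0.95). Pde12, an RNA-degrading enzyme gene, had 23.5 and 26.3 TPM in control at 7 dpi and between 10.4 and 14.1 TPM in the other 6 libraries. For Fbln7, Slc41a1, Zfp651 and Vwa1 each had r = 0.99 or more, and Vwa1, a matrix protein gene, had 25.3 and 28.5 TPM in control and at most 21.8 TPM in Osr1cKO at 7 dpi, against 5.34 to 6.41 TPM at 3 dpi. For Mfap5, Rps27, Rbm18 and Cercam each had r = 0.98. Libraries of 1 day share many differences, so such values are easily reached. Among the members, Eln was most like Fbln5 (r = 0.78), which made it the member with the loosest tie to any other.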

How the data were processed

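The authors aligned stranded, paired-end reads of polyadenylated RNA to mm10 with STAR, normalised fragment counts with DESeq2 and deposited TPM per gene symbol, in 1 table for each of the 8 libraries. The program that counted fragments, its annotation and its use of strand are not given in the sources used here, so values of genes that overlap on opposite strands are uncertain. Of 55385 entries, 109 further entries of 106 repeated symbols were left out. Exon lengths from GENCODE release 21 of the mouse (GRCm38) matched 53281 symbols, and with them 98.65% to 98.91% of the values below 50 fragments came to a whole number (tolerance 0.02), which gave the depth of each library.

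Libraries were scaled to each other by trimmed means of log ratios, with 30% cut at each end. Genes were tested with limma (lmFit, eBayes with a trend) on log2(TPM + 1), a scale that understates the change of low genes. They needed 10 fragments in 2 libraries and 15 over the libraries compared, or a mean TPM of 1 where no length was known. Each comparison used its own libraries, p-values were adjusted over all genes tested by Benjamini and Hochberg, and the interaction used all 8 libraries. Each control and each Osr1cKO library enters both a genotype and a day comparison, so these are not independent. Thresholds followed the methods of the study for genotype, with those of 7 dpi used for day. The procedure was also run on simulated data with known changes. These gave every gene the same relative spread beyond counting noise, so they do not measure its accuracy on libraries with an uneven spread.

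The members, the 6 gene lists and the cell type markers were chosen with earlier results of these data known. All members were named, with Osr1, the most abundant genes of each list (3 at most) and the 3 genes most correlated with each of Eln, Fbln7 and Mfap5; exceptions are stated. Alternatives were other scalings, a pseudocount of 0.1, other filters, limma-voom on recovered fragments, robust eBayes, a replicate block, 1 fit over the 8 libraries, other thresholds and the omission of each library in turn. Promoters came from RefSeq. Fits used limma 3.58.1 in R 4.3.3, and tables were handled with pandas 2.3.3 and NumPy 2.4.6 in Python 3.11.15. Single-cell data and protein sequences were not analysed here.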

Additional observations from a re-analysis of the deposited data

Results flagged for a closer look

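Fbln7 was singled out because the effect of genotype went in opposite directions at the 2 days: both Osr1cKO libraries lay above both controls at 3 dpi and below both at 7 dpi. Genotypes did not overlap, in either direction, for 36.2% of all genes at 3 dpi and 53.5% at 7 dpi. The share of all genes with opposite directions at the 2 days was not counted. The difference between the log2 fold changes was -1.57 (standard error 0.27) and was tested as an interaction over all 8 libraries, with an adjusted p of 0.421 by limma. Whether a library stood far from the others of its group was not tested, since groups of 2 libraries do not allow it.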

How the results depend on the processing

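At 3 dpi, the 3 members called became 0 at an adjusted p under 0.1 and between 1 and 3 with 1 library left out, the 1 being Emilin1 without control replicate 1. They were 2 with no filter on low values, where Fbln7 was lost, and 4 with all 8 libraries in 1 fit, where Fbln5 was gained. At 7 dpi, the 2 members called became 0 on deposited TPM with no further scaling, with upper quartile scaling and with all 8 libraries in 1 fit. The same held with a filter on mean TPM of at least 1 and with no filter on low values. In each of these settings 0 of all genes were called. The adjusted p of Eln then ranged up to 0.382 and that of Fbln7 up to 0.464 by limma, while both kept their direction. With 1 library left out, the log2 fold change of Eln lay between -1.51 and -1.19 and that of Fbln7 between -0.93 and -0.83. On unscaled TPM the median log2 fold change of all genes at 7 dpi was 0.11, against 0.0046 after scaling, with 2282 higher and 468 lower genes at an unadjusted p under 0.05 in place of 864 and 979. Across all genes at 7 dpi, limma-voom called 74 higher and 114 lower in place of 3 and 8. With upper quartile scaling the medians between the days were 0.16 in control and 0.15 in Osr1cKO, against 0.01 in both, with 5255 higher and 3208 lower genes in control in place of 3940 and 4200, and 5808 and 3379 in Osr1cKO in place of 4460 and 4734. With 1 library left out, the interactions of Fbln7 and Eln kept their direction.

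With 1 library left out, directions turned for values that were not called: Mfap5 at 3 dpi (-0.28 to 0.56), Fbn2 (-0.17 to 0.37, with -0.10 in a further case) and Fbln2 (-0.19 to 0.36) at 7 dpi, Emilin1 between the days in control (-0.64 to 0.10, with 0.0079 in a further case), and the interactions of Fbln5 (-0.016 to 0.53) and Efemp2 (-0.34 to 0.049). The cause was not tested. With the replicate number as a block, the members called between genotypes were 4 at 3 dpi (Fbln5 added) and 2 at 7 dpi. Of all genes, 294 were then higher and 617 lower of 15699 at 3 dpi, and 13 and 14 of 16578 at 7 dpi. Between the days 7 members were called in each genotype. There 3516 genes were higher and 3622 lower of 16525 in control, and 4215 and 4533 of 16279 in Osr1cKO. For the interaction 0 members and 0 genes were called. Libraries of the same number correlated between -0.14 and 0.07 over 17371 genes, so the numbers do not pair them. With 2 libraries per group, 1 library can carry a value, and depth was not the limit for any member.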
